A study of Homo sapiens with 8 samples.

Results

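The 9 genes described here encode inhibitor of apoptosis proteins (XIAP, BIRC2, BIRC3, BIRC5 and BIRC6), the caspase-8 regulator CFLAR, the initiator caspases CASP8 and CASP9, and DIABLO, an antagonist of the inhibitors. They were taken by symbol from a table of 58884 Ensembl gene identifiers, and all 9 were among the 14741 genes with enough counts to be tested. The measurements are read counts per gene in 8 RNA libraries of U87 cells, an established human glioblastoma line, in 4 groups of 2. The AsiDNA with belinostat group had long-term AsiDNA and also 1 µM belinostat for 24 h. The belinostat group received the same belinostat treatment without AsiDNA, the AsiDNA group had long-term AsiDNA without belinostat, and the DMSO group received DMSO, the solvent. AsiDNA is a DNA oligonucleotide shaped like a broken double-stranded end, and belinostat blocks histone deacetylases. The labels call the cells MTU87 and LTAU87, and the sources used here give neither the dose nor the duration of AsiDNA. All groups are of 1 cell line, and the labels do not say whether replicates came from separate cultures, so p-values measure only the spread between these libraries, which may be technical.

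Caspases are proteases that are made as inactive precursors and that dismantle the cell once activated. CASP8 is activated at death receptors, where CFLAR, a related protein without protease activity, can hold it in check, and CASP9 is activated by APAF1 and cytochrome c after mitochondria become permeable. XIAP binds caspases and inhibits them. DIABLO is released from mitochondria and displaces XIAP from caspases. BIRC2 and BIRC3 are ubiquitin ligases that act mainly at receptors of the tumour necrosis factor family. BIRC6 is a very large ubiquitin-conjugating enzyme, and BIRC5 (survivin) works mainly in mitosis, as part of the chromosomal passenger complex.

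The libraries held between 6057394 and 9699637 counts, where 3 counts corresponded to 0.309 to 0.495 CPM. Values are given as CPM, a gene's count relative to the scaled total of its library. A CPM value is a share of the library, so fewer cells that express a gene and less of its RNA per cell cannot be told apart. Among 8 glioma and astroglial markers, VIM, CD44 and TNC lay between 1370 and 5970 CPM, whereas SOX2 had 0 counts in every library and GFAP and S100B reached at most 0.487 and 0.256 CPM. Of 9 markers of immune, endothelial and epithelial cells, PECAM1 was the highest at 3.74 to 20.6 CPM, and CD3E and CDH5 had 0 counts. Some markers moved with belinostat, and their part in the results below was not tested. PECAM1 had 20.6 and 19.0 CPM in belinostat cells against 5.05 and 4.97 CPM in DMSO cells (1.98 ± 0.23 on the log2 scale, adjusted p = 9.75e-06), and 13.5 and 16.0 CPM in the combination against 3.74 and 5.97 CPM in AsiDNA cells (1.62 ± 0.25, adjusted p = 0.000152). VIM fell, at -1.66 ± 0.19 and -0.57 ± 0.18 in the same comparisons, and NES rose, at 2.60 ± 0.21 and 3.04 ± 0.21. CD44 was at -0.01 ± 0.15 and 0.65 ± 0.15, and TNC at -0.34 ± 0.15 and 0.18 ± 0.15. The mean of VIM was 1430 CPM in belinostat cells against 4500 CPM in DMSO cells, so VIM weighs heavily in the sum that follows. The summed level of the 8 glioma and astroglial markers was 9716 to 9788 CPM in the combination, 4997 to 5610 CPM in belinostat, 10299 to 10477 CPM in AsiDNA and 7657 to 10236 CPM in DMSO cells. The 3 endothelial markers summed to 13.5 to 16.5 CPM in the combination, 19.5 to 23.5 CPM in belinostat, 3.74 to 6.12 CPM in AsiDNA and 5.15 to 5.17 CPM in DMSO cells, and the immune and epithelial sums stayed at or below 1.35 and 1.41 CPM. The DMSO libraries differed from each other, and 2 libraries cannot show which of them is unusual. Of 8142 well-counted genes (average log2 CPM over 4), between 0.184% and 0.786% were more than 1.5-fold apart within each of the other groups, and 11.1% within DMSO. The nuclear RNAs MALAT1 and NEAT1 together took 3.12% and 2.06% of counts with the combination, 12.2% and 13.4% with belinostat alone, 0.753% and 0.688% with AsiDNA, and 0.911% and 2.81% with DMSO. The part of this difference in the results below was not tested, and values without 1 of the DMSO libraries are given where they end a call or move a value by more than 1.5-fold.

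Per length of transcript, BIRC5 stood highest of the 9 genes in DMSO cells and BIRC6 in belinostat cells. Levels were divided by the merged exon length of each gene (CPM per kb, mean ± SD, n = 2), which understates genes with long exons that U87 cells may not use. In DMSO cells the order was BIRC5 (58.2 ± 21 CPM per kb), BIRC2 (31.3 ± 1.4), BIRC6 (22.9 ± 0.34), XIAP (11.1 ± 2.3), CFLAR (6.52 ± 0.82), CASP8 (3.92 ± 0.14), BIRC3 (3.56 ± 0.71), CASP9 (1.29 ± 0.31) and DIABLO (1.25 ± 0.52). CASP8 and BIRC3 did not differ beyond their spread there, and neither did CASP9 and DIABLO. AsiDNA cells had nearly the same order, from BIRC5 at 70.7 ± 0.50 CPM per kb to DIABLO at 1.01 ± 0.28, with BIRC3 (4.37 ± 0.90) and CASP8 (4.2 ± 0.94) overlapping. In belinostat cells BIRC6 led with 28.1 ± 0.11 CPM per kb, ahead of BIRC2 (13.2 ± 0.82), BIRC5 (9.68 ± 1.3) and CFLAR (7.58 ± 1.1), and BIRC3 was last (1.38 ± 0.010). XIAP stood below CASP8 in that group, at 3.52 ± 0.058 against 4.50 ± 0.11 CPM per kb. In AsiDNA with belinostat cells BIRC5 (23.1 ± 0.81 CPM per kb) and BIRC6 (22.5 ± 0.96) overlapped at the top, XIAP (5.18 ± 0.19) and CFLAR (4.96 ± 0.19) were also within their spread of each other, and DIABLO was last (1.39 ± 0.23).

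The inhibitor genes XIAP, BIRC2, BIRC3 and BIRC5 fell with belinostat in cells with and without AsiDNA. Against DMSO, belinostat lowered these 4 of the 9 genes and raised 2 (BIRC6 and DIABLO) at an adjusted p under 0.05, where 27.6% of all tested genes were lower and 29.8% higher (57.4% called in all). Against AsiDNA, the combination lowered the same 4 genes and raised 1 (CASP9), where 21.2% of all tested genes were lower and 21.7% higher (42.9% in all). The median log2 fold change of the 9 genes was 0.20 and -0.38 in these comparisons, against 0.06 and 0.02 over all tested genes. With library sizes alone as scaling, the medians over all genes were -0.08 and -0.12, and the share of calls that were higher was 42.8% and 39.3%, against 51.9% and 50.6%.

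**Figure D1:**
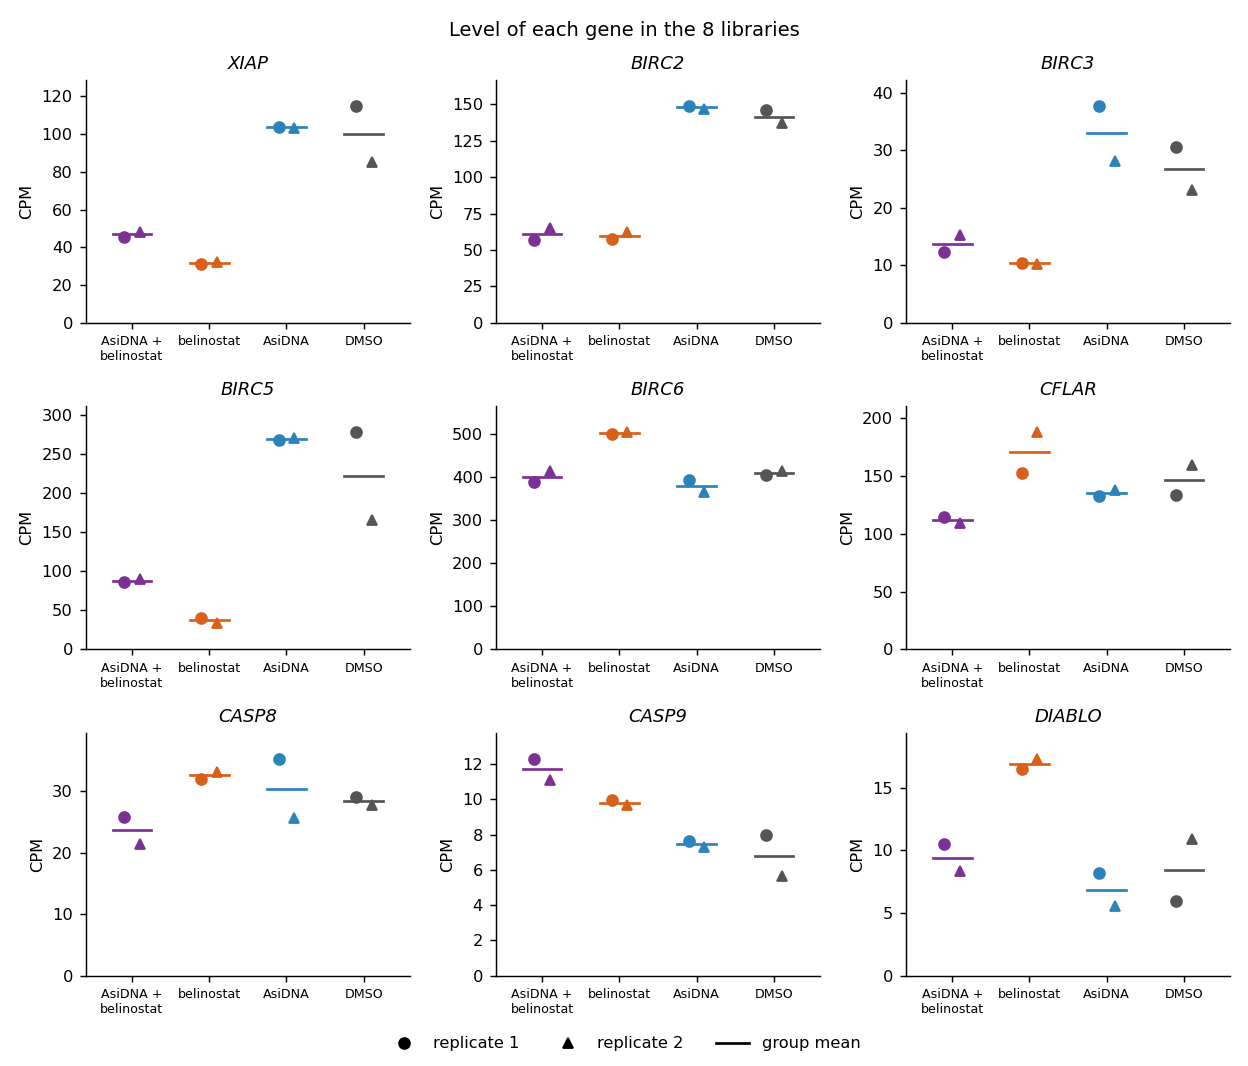
CPM of each of the 9 genes in every library, on linear axes that start at 0, with circles for replicate 1, triangles for replicate 2 and a line for the mean of each group of 2. XIAP, BIRC2, BIRC3 and BIRC5 sit lower in both groups given belinostat than in the groups without it, and BIRC5 also shows the gap between the DMSO libraries (278 and 166 CPM).

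BIRC5 (ENSG00000089685, chromosome 17, 78214186 to 78225636, plus strand, GRCh38) showed the largest change of the 9 genes in both comparisons. It had 40.4 and 33.5 CPM in belinostat cells, against 278 and 166 CPM in DMSO cells. In AsiDNA with belinostat cells it had 85.8 and 90.1 CPM, against 268 and 271 CPM in AsiDNA cells. The groups did not overlap in either pair, and DMSO replicate 2 was the lowest of the 4 libraries without belinostat. The log2 fold change was -2.58 ± 0.21 for belinostat against DMSO, a 5.98-fold lower level (edgeR quasi-likelihood test, adjusted p = 3.9e-07), and -1.62 ± 0.19 for the combination against AsiDNA, 3.07-fold lower (adjusted p = 2.13e-05). Over 15 alternative settings the first value lay between -2.92 and -2.16 and the second between -1.75 and -1.58, and all of them passed the test.

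XIAP (ENSG00000101966, chromosome X, 123859724 to 123913979, plus strand), a direct inhibitor of caspases, fell next most in cells without AsiDNA. Its level was 31.4 and 32.2 CPM in belinostat cells, against 115 and 85.4 CPM in DMSO cells. In AsiDNA with belinostat cells it was 45.6 and 48.0 CPM, against 104 and 103 CPM in AsiDNA cells. Every library with belinostat was below every library without it. The log2 fold changes were -1.65 ± 0.15 (3.15-fold lower, adjusted p = 1.22e-06) and -1.15 ± 0.15 (2.21-fold lower, adjusted p = 3.98e-05), and both passed under all 15 alternatives.

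BIRC3 and BIRC2 are neighbours on chromosome 11, both on the plus strand, at 102317450 to 102339403 (ENSG00000023445) and 102347211 to 102378670 (ENSG00000110330), so that 7808 bases separate them. Their promoters are shown because these paralogous genes fell by a like amount from starts of different base composition. The windows, from RefSeq on GRCh38.p14, run from 250 bases before to 50 bases after the start, at chr11:102317234-102317533 for BIRC3 and chr11:102346964-102347263 for BIRC2, both on the plus strand, and capitals mark matches to the NF-kB-type word (GGG, any 5 bases, then CC) on either strand.
BIRC3: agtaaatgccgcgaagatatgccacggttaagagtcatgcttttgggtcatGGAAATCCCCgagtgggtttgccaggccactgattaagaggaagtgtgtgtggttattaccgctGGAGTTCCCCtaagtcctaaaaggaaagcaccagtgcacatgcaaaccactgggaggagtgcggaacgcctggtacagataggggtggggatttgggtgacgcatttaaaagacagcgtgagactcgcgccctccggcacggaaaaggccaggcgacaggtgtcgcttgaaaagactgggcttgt
BIRC2: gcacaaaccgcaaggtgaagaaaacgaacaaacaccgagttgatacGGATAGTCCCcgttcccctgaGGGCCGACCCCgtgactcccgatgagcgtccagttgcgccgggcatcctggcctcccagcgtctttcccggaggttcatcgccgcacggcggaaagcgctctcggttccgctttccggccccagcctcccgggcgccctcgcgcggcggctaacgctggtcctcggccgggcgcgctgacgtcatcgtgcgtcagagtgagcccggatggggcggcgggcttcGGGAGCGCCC
The BIRC3 window held 53.3% G or C and 2 such matches, and the BIRC2 window 68.7% and 6 matches, some of which overlap each other, where the median of 35116 windows was 58.7% G or C. The word occurs in 58.7% of these windows, so a match is a description and not a binding site. The GC box GGGCGG, found in 45% of all windows, occurred once in the BIRC2 window and not in that of BIRC3, and no match of 1 word overlapped the other in these windows. The table holds a further BIRC2 start, at chr11:102347124-102347423 and not printed here, whose window had 74% G or C, 3 GC boxes and 3 matches to the NF-kB-type word. Of the 9 genes, 8 matched the promoter table with 21 windows, of which 17 held the NF-kB-type word.

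The ubiquitin ligase BIRC2 was at 57.3 and 62.5 CPM in belinostat cells, against 146 and 137 CPM in DMSO cells. It was at 56.6 and 65.2 CPM in AsiDNA with belinostat cells, against 149 and 147 CPM in AsiDNA cells. The 4 libraries with belinostat thus shared 1 range and the 4 without it another, with AsiDNA or without. Log2 fold changes were -1.25 ± 0.12 (2.37-fold lower, adjusted p = 2.63e-06) and -1.28 ± 0.13 (2.42-fold lower, adjusted p = 4.18e-06). BIRC3, its less abundant paralogue, had 10.4 and 10.3 CPM in belinostat cells, against 30.5 and 23.0 CPM in DMSO cells. It had 12.3 and 15.2 CPM in AsiDNA with belinostat cells, against 37.7 and 28.1 CPM in AsiDNA cells. No library with belinostat reached the lowest library without it. BIRC3 changed by -1.36 ± 0.21 (2.57-fold lower, adjusted p = 0.000107) and -1.25 ± 0.20 (2.38-fold lower, adjusted p = 0.000278). For both genes all 15 alternatives passed in both comparisons.

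BIRC6 (ENSG00000115760, chromosome 2, 32357028 to 32618899, plus strand), the largest of the family, did not follow the other inhibitors. It stood at 501 and 504 CPM in belinostat cells, against 405 and 413 CPM in DMSO cells. In AsiDNA with belinostat cells it stood at 389 and 413 CPM, against 392 and 365 CPM in AsiDNA cells, and these groups overlapped. Its log2 fold change was 0.30 ± 0.11 against DMSO (adjusted p = 0.0403), a call that 13 of 15 alternatives did not keep, including leaving out any AsiDNA, belinostat or combination library (0.20 to 0.28). In the combination against AsiDNA it was 0.08 ± 0.12 (95% interval -0.16 to 0.33, adjusted p = 0.596), and -0.05 with library sizes alone as scaling.

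CFLAR and CASP8, which lie 56756 bases apart on the plus strand of chromosome 2 (201116104 to 201176687 and 201233443 to 201287711, ENSG00000003402 and ENSG00000064012), did not pass the test for belinostat in either background. CFLAR had 153 and 188 CPM in belinostat cells, against 134 and 160 CPM in DMSO cells, which overlap. It had 115 and 109 CPM in AsiDNA with belinostat cells, against 133 and 138 CPM in AsiDNA cells, with the combination libraries below. The log2 fold changes were 0.21 ± 0.14 (95% interval -0.08 to 0.50, adjusted p = 0.19) and -0.28 ± 0.14 (-0.57 to 0.02, adjusted p = 0.12). Without DMSO replicate 2 the first passed (0.32, adjusted p = 0.00741), without belinostat replicate 2 it was -0.03 (adjusted p = 0.888), and the second passed in 4 of 15 alternatives, among them leaving out either DMSO library (-0.28 in both, adjusted p = 0.00714 and 0.00631) and library sizes alone as scaling (-0.41, adjusted p = 0.0364). The counts are per gene and do not separate the long and short forms of CFLAR, which differ in function.

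CASP8, the initiator caspase of death receptors, was at 32.0 and 33.2 CPM in belinostat cells, against 29.1 and 27.7 CPM in DMSO cells. It was at 25.9 and 21.4 CPM in AsiDNA with belinostat cells, against 35.3 and 25.6 CPM in AsiDNA cells. The belinostat libraries were above both DMSO libraries by a small margin, while the combination and AsiDNA libraries overlapped. Log2 fold changes were 0.20 ± 0.17 (95% interval -0.17 to 0.56, adjusted p = 0.333) and -0.38 ± 0.18 (-0.76 to 0.00, adjusted p = 0.102). The second passed in 5 of 15 alternatives, among them without DMSO replicate 1 (-0.39, adjusted p = 0.0192), without DMSO replicate 2 (-0.39, 0.0178) and without AsiDNA replicate 2 (-0.58, 0.049).

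CASP9, the initiator of the mitochondrial pathway (ENSG00000132906, chromosome 1, 15490832 to 15526534, minus strand), was low in all libraries. It had 9.97 and 9.65 CPM in belinostat cells, against 7.98 and 5.65 CPM in DMSO cells. It had 12.3 and 11.1 CPM in AsiDNA with belinostat cells, against 7.61 and 7.28 CPM in AsiDNA cells. All 4 libraries with belinostat were above all 4 without it. The combination against AsiDNA passed, at 0.65 ± 0.24 (1.57-fold higher, adjusted p = 0.0381), and belinostat against DMSO did not, at 0.53 ± 0.23 (adjusted p = 0.0679). The call in AsiDNA cells was lost in 9 of 15 alternatives, among them leaving out any AsiDNA, belinostat or combination library (0.58 to 0.70), and without DMSO replicate 1 the comparison with DMSO passed (0.79, adjusted p = 0.00886).

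DIABLO (ENSG00000184047, chromosome 12, 122207663 to 122226568, minus strand), the antagonist that frees caspases from XIAP, rose with belinostat in cells without AsiDNA. It had 16.5 and 17.3 CPM in belinostat cells, against 5.96 and 10.9 CPM in DMSO cells. In AsiDNA with belinostat cells it had 10.5 and 8.32 CPM, against 8.21 and 5.53 CPM in AsiDNA cells. The belinostat libraries were the highest of all 8, and DMSO replicate 2 was above both combination libraries. The log2 fold change against DMSO was 1.00 ± 0.27 (2.0-fold, adjusted p = 0.00699). Leaving out DMSO replicate 1 gave 0.62 and leaving out DMSO replicate 2 gave 1.47, both of which passed, and it did not pass without belinostat replicate 1 (0.94, adjusted p = 0.0657) or replicate 2 (0.88, adjusted p = 0.0726). In the combination against AsiDNA it was 0.43 ± 0.30 (95% interval -0.22 to 1.09, adjusted p = 0.275). DIABLO rests on 38 to 141 counts per library. Of its exon length, 29.6% and 16.8% are shared with overlapping genes on the same strand (ENSG00000284934 and ENSG00000256861) and 14.3% with B3GNT4 on the opposite strand, so how the authors' counting treated shared reads bears on its level.

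**Figure D2:**
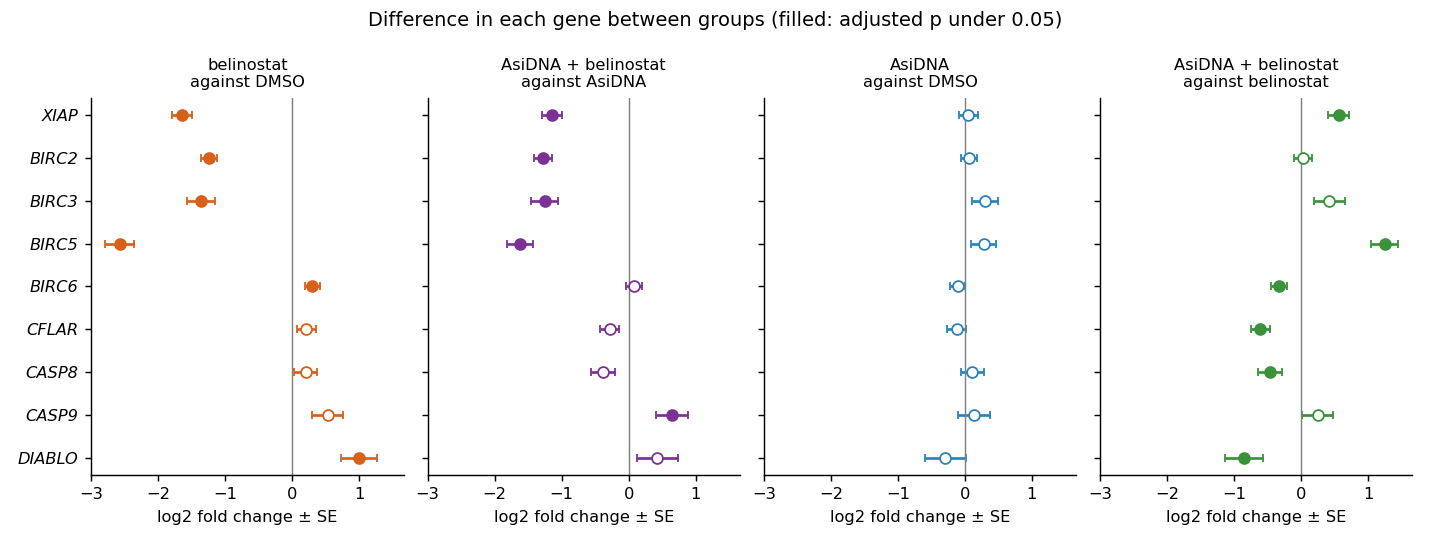
Log2 fold change ± SE of each gene in 4 comparisons, each panel with the first-named group over the second, on a shared axis, where filled points have an adjusted p under 0.05. XIAP, BIRC2, BIRC3 and BIRC5 lie left of 0 in both belinostat panels (-2.58 to -1.15), no point is filled for AsiDNA against DMSO, and BIRC5 (1.25) and XIAP (0.56) are filled right of 0 for the combination against belinostat.

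Ratios of counts within a library do not depend on scaling between libraries, and they are given with no test. XIAP exceeded DIABLO by 1.90 and 1.86 times in belinostat cells, against 19.3 and 7.82 times in DMSO cells. It exceeded DIABLO by 4.33 and 5.77 times in AsiDNA with belinostat cells, against 12.7 and 18.6 times in AsiDNA cells. The ratio was therefore lowest in the belinostat libraries, next lowest in the combination libraries, and the groups with and without belinostat did not overlap. On the log2 scale the group means were 2.32 ± 0.29 in the combination, 0.91 ± 0.02 in belinostat, 3.94 ± 0.39 in AsiDNA and 3.62 ± 0.92 in DMSO (SD, n = 2). These are ratios of counts, not of molecules. XIAP has the longer exons, and the treatment of reads that DIABLO shares with overlapping genes is unknown.

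The other pairs kept their ratio more closely. BIRC2 counts were 5.48 and 6.05 times those of BIRC3 in belinostat cells, against 4.79 and 5.97 times in DMSO cells, and 4.58 and 4.28 times in AsiDNA with belinostat cells, against 3.94 and 5.22 times in AsiDNA cells. CFLAR counts were 4.78 and 5.68 times those of CASP8 in belinostat cells, against 4.60 and 5.78 times in DMSO cells, and 4.44 and 5.08 times in AsiDNA with belinostat cells, against 3.77 and 5.39 times in AsiDNA cells. In both pairs the libraries with belinostat overlapped those without it, in cells with and without AsiDNA. BIRC5 was set against the sum of AURKB, INCENP and CDCA8, the kinase and scaffolds that form the chromosomal passenger complex with it. This ratio was 0.362 and 0.302 in belinostat cells, against 1.04 and 0.664 in DMSO cells, and 0.731 and 0.790 in AsiDNA with belinostat cells, against 1.09 and 1.01 in AsiDNA cells. The ratio was lowest in cells given belinostat alone, and the combination libraries lay nearest to DMSO replicate 2. INCENP gave the largest part of the sum in every library (494 of 703 counts in combination replicate 1), and it fell least of the partners. Against DMSO, the value was -2.58 ± 0.21 for BIRC5, -1.91 ± 0.18 for AURKB and -1.91 ± 0.16 for CDCA8. The difference between these genes was not tested. On leaving out 1 library, BIRC5 ran from -2.92 to -2.16, AURKB from -2.25 to -1.75 and CDCA8 from -2.09 to -1.77. In the combination against AsiDNA, BIRC5 (-1.62 ± 0.19) did not fall more than AURKB (-1.92 ± 0.19) or CDCA8 (-1.72 ± 0.16).

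**Figure D3:**
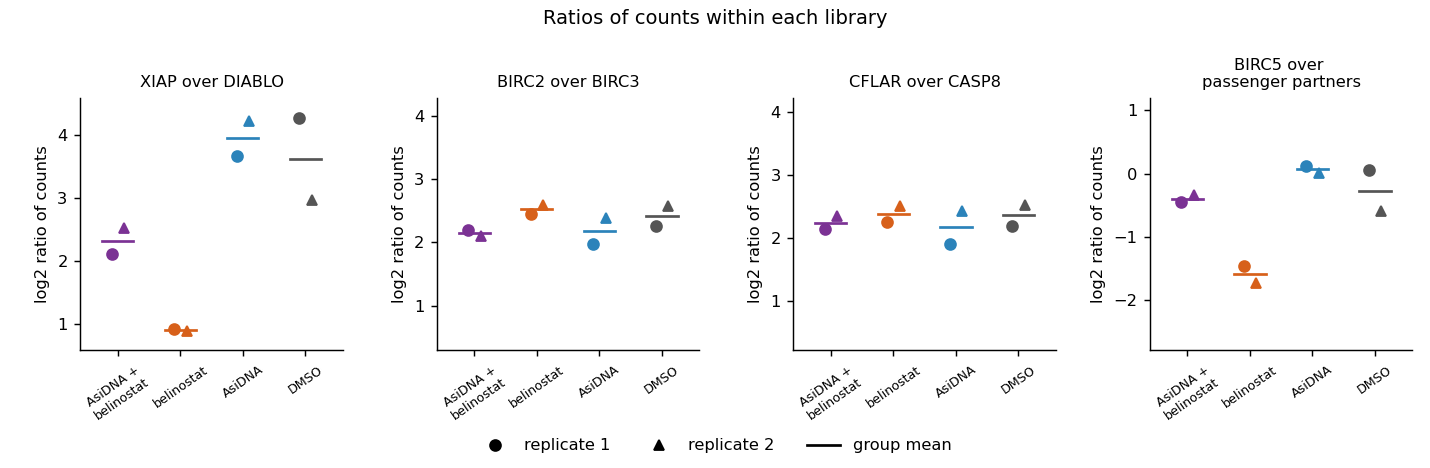
Log2 ratio of counts within each library for XIAP over DIABLO, BIRC2 over BIRC3, CFLAR over CASP8, and BIRC5 over the sum of AURKB, INCENP and CDCA8, with circles for replicate 1, triangles for replicate 2 and lines for group means, on axes of equal span. XIAP over DIABLO is lowest in belinostat cells (0.93 and 0.90), and BIRC2 over BIRC3 and CFLAR over CASP8 stay between 1.91 and 2.60 in all libraries.

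Long-term AsiDNA without belinostat gave no call among the 9 genes. Against DMSO, 0 of 9 passed by edgeR's quasi-likelihood test or by DESeq2, and edgeR called 0.0204% of all tested genes. In edgeR 0 of the 9 had an unadjusted p under 0.05, where 1674 of all 14741 tested genes did. The log2 fold changes lay between -0.29 ± 0.30 for DIABLO (95% interval -0.92 to 0.35) and 0.30 ± 0.19 for BIRC3 (-0.10 to 0.71). BIRC5 was at 0.28 ± 0.19 (-0.12 to 0.68) and XIAP at 0.05 ± 0.14 (-0.25 to 0.35), intervals that leave room for changes of moderate size. The DMSO libraries decided this result: without DMSO replicate 1, 4 of the 9 genes passed (BIRC5 at 0.72, BIRC3 at 0.54, XIAP at 0.30 and DIABLO at -0.63) among 4955 genes called in all. Without DMSO replicate 2, 0 of the 9 passed and 62 genes were called in all, with BIRC5 at -0.04 and DIABLO at 0.22.

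Cells given both agents differed from cells given belinostat alone in 6 of the 9 genes. BIRC5 and XIAP were higher in the combination and BIRC6, CFLAR, CASP8 and DIABLO lower, where 22.0% of all tested genes were higher and 21.4% lower (43.4% in all). These comparisons use the same belinostat libraries as those with DMSO above. BIRC5 was higher by 1.25 ± 0.20 on the log2 scale (2.37-fold, adjusted p = 0.000697), with 85.8 and 90.1 CPM in the combination against 40.4 and 33.5 CPM in belinostat cells, and this passed under all 15 alternatives. XIAP was higher by 0.56 ± 0.16 (1.47-fold, adjusted p = 0.0115), which was 0.57 with an adjusted p of 0.0588 without combination replicate 2. CFLAR was at -0.61 ± 0.14 (adjusted p = 0.00361), and at -0.40 (adjusted p = 0.0884) without belinostat replicate 2 and -0.52 (adjusted p = 0.07) without combination replicate 2.

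DIABLO was lower in the combination, at -0.85 ± 0.28 (adjusted p = 0.0265), CASP8 at -0.47 ± 0.18 (adjusted p = 0.0454) and BIRC6 at -0.33 ± 0.12 (adjusted p = 0.0355). These 3 calls were less stable. The count of the 9 genes called was 3 without belinostat replicate 1, 2 without belinostat replicate 2, 3 without combination replicate 1 and 1 (BIRC5) without combination replicate 2. DIABLO did not pass without any 1 of the belinostat or combination libraries (-0.95 to -0.63), and CASP8 and BIRC6 did not pass without any 1 of the AsiDNA, belinostat or combination libraries (-0.53 to -0.28 and -0.32 to -0.21). BIRC3 (0.42 ± 0.23, 95% interval -0.07 to 0.90), CASP9 (0.25 ± 0.23, -0.24 to 0.75) and BIRC2 (0.03 ± 0.13, -0.25 to 0.30) did not pass. BIRC3 passed without either DMSO library (0.45 and 0.44, adjusted p = 0.0424 and 0.0431), and BIRC2 was at -0.03 with library sizes alone as scaling.

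Whether the belinostat response itself differed between cells with and without AsiDNA was tested as an interaction. None of the 9 genes passed by edgeR's quasi-likelihood test, where 0.00678% of all tested genes were called. In edgeR 4 of the 9 had an unadjusted p under 0.05, as did 3203 of all 14741 tested genes. By DESeq2, 1 of the 9 passed (BIRC5, 0.99, adjusted p = 0.0188), among 614 genes called in all. The largest value was that of BIRC5, at 0.96 ± 0.28 (95% interval 0.37 to 1.56, unadjusted p = 0.00366, adjusted p = 0.094). CASP8 (-0.58 ± 0.25), XIAP (0.51 ± 0.21) and CFLAR (-0.49 ± 0.19) were the other 3, with adjusted p of 0.198, 0.187 and 0.169. BIRC2 was at -0.03 ± 0.18 (-0.41 to 0.35), and its sign differed between alternatives. DIABLO was at -0.56 ± 0.41 (-1.45 to 0.32, adjusted p = 0.442), and ran from -1.06 to -0.20 on leaving out 1 library. Leaving out DMSO replicate 1 let BIRC5 pass (0.54, adjusted p = 0.0108) among 1020 genes called in all. Leaving out DMSO replicate 2 let 4 of the 9 genes pass among 5358 called in all: BIRC5 (1.30), XIAP (0.73), CFLAR (-0.60) and DIABLO (-1.06). In both cases the remaining DMSO library is assumed to vary like those of the other groups.

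The rest of the apoptotic machinery was followed in 10 lists with 50 other genes, of which 38 were tested. CASP14, BIRC7, BIRC8, FASLG and RIPK3 had 0 counts in every library. Belinostat against DMSO raised 11 of the 38 and lowered 16, with a median of -0.35, and the combination against AsiDNA raised 9 and lowered 16, with a median of -0.40, where the medians over all genes are those given above. Over all tested genes, 29.8% were higher and 27.6% lower in the first comparison and 21.7% and 21.2% in the second, so the number raised by belinostat against DMSO was near that share. AsiDNA against DMSO called 0 of the 38 by edgeR. An unadjusted p under 0.05 was found for 5 of the 38, and for 1674 of all 14741 tested genes. In the combination against belinostat 5 were higher and 6 lower, where 22.0% and 21.4% of all tested genes were.

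Among the other caspases, CASP2, CASP4 and CASP6 fell with belinostat in both comparisons. CASP6, an executioner caspase, fell, with log2 fold changes of -1.69 ± 0.29 and -1.34 ± 0.27 (adjusted p = 0.000278 and 0.00142), with 3.17 and 2.71 CPM in belinostat cells against 10.8 and 8.38 CPM in DMSO cells. CASP2 fell, at -0.86 ± 0.13 and -0.59 ± 0.13 (adjusted p = 7.68e-05 and 0.00241). The inflammatory caspase CASP4 fell, at -0.68 ± 0.18 and -0.93 ± 0.19 (adjusted p = 0.00587 and 0.00131), and CASP1 was too low to read, at 0.0975 to 1.75 CPM.

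Neither apoptosome gene was called lower, where 27.6% of all tested genes were against DMSO and 21.2% against AsiDNA. APAF1, its scaffold, was at 0.27 ± 0.14 and 0.10 ± 0.14 (adjusted p = 0.108 and 0.612). CYCS, which encodes cytochrome c, was at 0.05 ± 0.14 against DMSO (adjusted p = 0.799) and rose by 0.44 ± 0.14 against AsiDNA (adjusted p = 0.0241), lost without any 1 of the AsiDNA or combination libraries (0.35 to 0.51). CYCS had 226 CPM in DMSO replicate 1 and 165 CPM in DMSO replicate 2, so that its value against DMSO was 0.29 (adjusted p = 0.0114) without replicate 1 and -0.19 (adjusted p = 0.0744) without replicate 2. Both tested antagonists of the inhibitors other than DIABLO rose in both comparisons, where 29.8% and 21.7% of all tested genes were higher. SEPTIN4, whose short form binds XIAP, gave 50 counts in belinostat cells against 9 in DMSO cells, a ratio of 7.76 (95% interval 3.78 to 17.9 for counting error). The DMSO libraries held 7 and 2 of these counts, and leaving out DMSO replicate 1 gave a fitted log2 fold change of 4.02 and leaving out DMSO replicate 2 one of 2.23, both of which passed. SEPTIN4 gave 51 counts in the combination against 2 in AsiDNA cells, a ratio of 28 (7.37 to 238). HTRA2, a mitochondrial protease, rose by 0.50 ± 0.16 and 0.51 ± 0.16 (adjusted p = 0.0157 and 0.0182). The first was lost without either belinostat or either combination library (0.31 to 0.50) and the second without either AsiDNA library or combination replicate 2 (0.34 to 0.60).

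**Figure D4:**
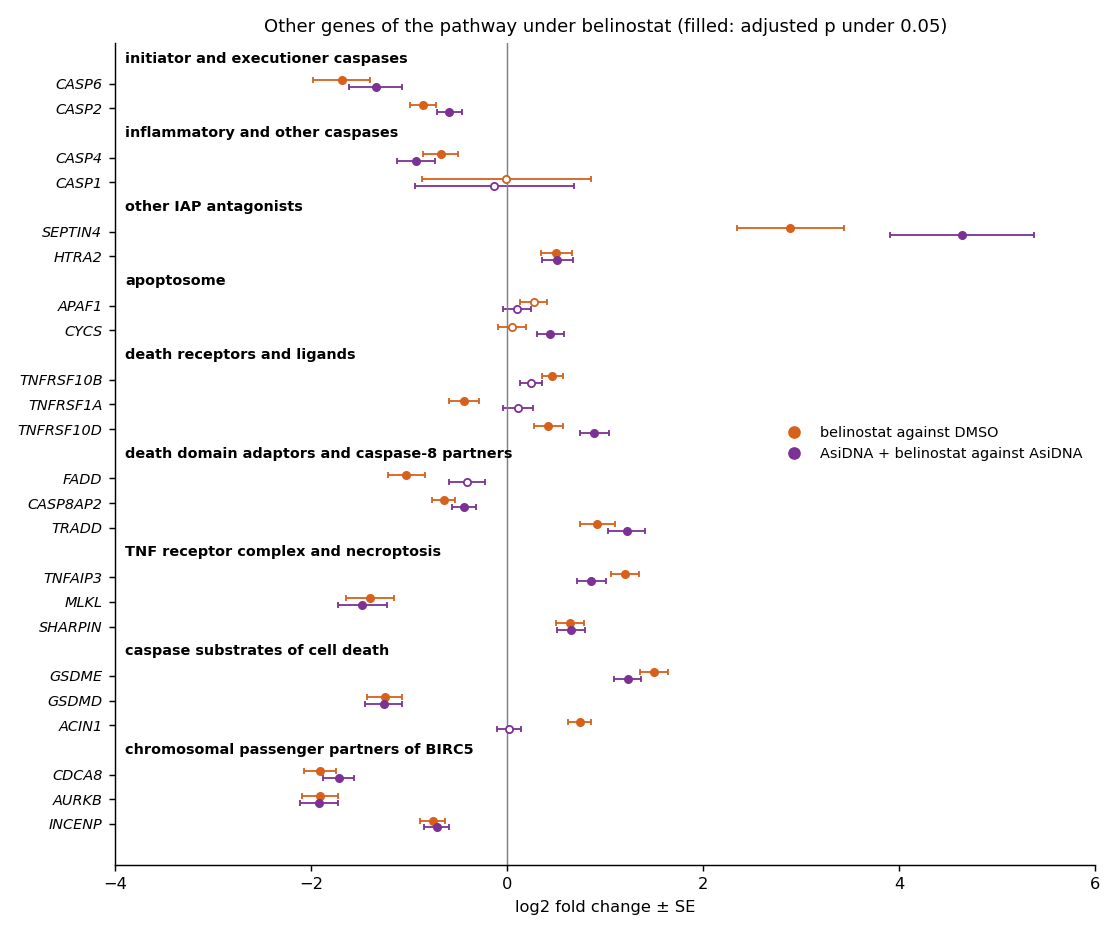
Log2 fold change ± SE of the other named genes of the pathway, grouped by role, for belinostat over DMSO (orange) and AsiDNA with belinostat over AsiDNA (purple), where filled points have an adjusted p under 0.05. CASP6, MLKL, GSDMD, CDCA8 and AURKB lie left of -1 in both comparisons, and SEPTIN4 and GSDME lie right of 1 in both.

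Of the 5 tested death receptor genes, 2 were higher and 2 lower against DMSO, where 29.8% and 27.6% of all tested genes were, and 1 each against AsiDNA, near the 21.7% and 21.2% of all tested genes. TNFRSF10B, a receptor of the ligand TRAIL, had 284 and 274 CPM in belinostat cells against 210 and 196 CPM in DMSO cells (0.46 ± 0.11, adjusted p = 0.00329, and 0.35 with an adjusted p of 0.0564 without belinostat replicate 1). Against AsiDNA it was at 0.24 ± 0.11 (adjusted p = 0.108), and it passed without either DMSO library (0.23 in both). The decoy receptor TNFRSF10D rose by 0.42 ± 0.15 and 0.89 ± 0.15 (adjusted p = 0.0274 and 0.000308), with the first lost without any 1 library other than DMSO replicate 1 (0.19 to 0.40). TNFRSF1A, the main receptor of tumour necrosis factor, fell, at -0.44 ± 0.15 against DMSO (adjusted p = 0.0247), lost without DMSO replicate 1 (-0.22) and without belinostat replicate 1 (-0.51), and was at 0.11 ± 0.15 against AsiDNA (adjusted p = 0.568).

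Among adaptors, FADD, which recruits CASP8 to receptors, had 12.6 and 15.1 CPM in belinostat cells against 32.8 and 23.4 CPM in DMSO cells (-1.03 ± 0.19, adjusted p = 0.000441, with -0.79 without DMSO replicate 1 and -1.29 without replicate 2). In the combination it was at 24.9 and 26.9 CPM, against 36.0 and 32.7 CPM in AsiDNA cells (-0.41 ± 0.18, adjusted p = 0.0844, and passing without either DMSO library at -0.41). TRADD, the adaptor of TNFRSF1A, rose by 0.92 ± 0.18 and 1.22 ± 0.19 (adjusted p = 0.000806 and 0.000167). CASP8AP2, a nuclear protein that binds CASP8, fell, at -0.65 ± 0.12 and -0.44 ± 0.12 (adjusted p = 0.000479 and 0.00944), the second lost without any 1 of the AsiDNA or combination libraries (-0.46 to -0.43). In the list of the tumour necrosis factor receptor complex and necroptosis, 4 of 9 tested genes were higher and 2 lower against DMSO, and 3 higher and 4 lower against AsiDNA, where 57.4% and 42.9% of all tested genes were called in either direction. TNFAIP3, a ubiquitin-editing enzyme that restrains NF-kB, rose by 1.20 ± 0.14 and 0.86 ± 0.15, and SHARPIN, of the linear ubiquitin ligase, by 0.64 ± 0.14 and 0.65 ± 0.14. MLKL, the effector of necroptosis, fell, at -1.40 ± 0.24 and -1.48 ± 0.25. Adjusted p lay between 8.72e-06 and 0.00206 for these 3 genes.

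Of the 5 tested genes of caspase substrates, 2 were higher and 2 lower against DMSO, where 29.8% and 27.6% of all tested genes were. Against AsiDNA 1 was higher and 1 lower, near the 21.7% and 21.2% of all tested genes. GSDME, which encodes a pore-forming protein, had 65.0 and 65.7 CPM in belinostat cells against 21.1 and 25.1 CPM in DMSO cells, and 47.1 and 46.9 CPM in AsiDNA with belinostat cells against 19.8 and 20.4 CPM in AsiDNA cells. It rose by 1.5 ± 0.14 and 1.23 ± 0.14 (adjusted p = 1.3e-06 and 1.82e-05), while GSDMD, cleaved by inflammatory caspases, fell, at -1.25 ± 0.18 and -1.26 ± 0.19 (adjusted p = 7.48e-05 and 0.000131). ACIN1 rose by 0.74 ± 0.12 against DMSO (adjusted p = 0.000119) and was at 0.02 ± 0.12 against AsiDNA (adjusted p = 0.889), or -0.11 with library sizes alone as scaling. All 3 passenger partners of BIRC5 fell in both comparisons. AURKB fell, at -1.91 ± 0.18 and -1.92 ± 0.19, CDCA8 at -1.91 ± 0.16 and -1.72 ± 0.16, and INCENP at -0.76 ± 0.13 and -0.72 ± 0.13. In the combination against belinostat, where BIRC5 was higher, none of the 3 partners passed by edgeR, and none had an unadjusted p under 0.05 (AURKB -0.15 ± 0.20, CDCA8 0.25 ± 0.17, INCENP 0.03 ± 0.13).

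Profiles over the 8 libraries were compared by the root mean square difference in log2 CPM after centring each gene on its own mean. Each nearest profile is the smallest distance among 13597 named genes. XIAP lay nearest to ATAD2 (0.0616) and BIRC2 to EIF5 (0.0584). For BIRC5 the nearest was HMGB3, at 0.103. The nearest to BIRC3 was NBN (0.0928), to BIRC6 USP54 (0.0399), to CFLAR DDX55 (0.0567), to CASP8 CPNE8 (0.0886), to CASP9 EIF1AD (0.0564) and to DIABLO ERMARD (0.118). These distances describe 8 libraries that share 4 treatments.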

How the data were processed

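RNA was extracted from U87 cells, and stranded libraries were made from ribosome-depleted total RNA, per the labels' protocols. The submitters' processing notes name cutadapt 1.16, STAR 2.7.0, featureCounts 1.6.3 and the build GRCh38. The authors deposited whole-number counts of reads for each gene, not normalized. The sources used here give no annotation release or strand setting, so overlapping and antisense genes are uncertain. Names were found for 58876 of 58884 identifiers, and locations, exon lengths and overlaps come from GENCODE 29.

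In edgeR 4.0.16 (R 4.3.3), filterByExpr removed low genes and TMM gave the scaling. The fit over all 8 libraries had 1 coefficient per group (4 residual degrees of freedom, prior 9.56). Contrasts were tested by quasi-likelihood, with adjustment by Benjamini-Hochberg over 14741 genes, with calls at an adjusted p under 0.05. Fold changes are the first-named group over the second, ± SE, where SE is the size of the log2 value over the root of the F statistic. Intervals of fold changes are 95%, and those of count ratios cover counting error only. The steps were tested on simulated data. Alternatives, 15 per comparison and 14 for the interaction, are RLE factors, library sizes alone, 2 other filters, DESeq2 1.42.0, only the groups compared (not for the interaction), a replicate block and leaving out each library. Besides the 9 genes, CASP6, APAF1, CYCS and up to 3 genes per list with the smallest adjusted p for belinostat against DMSO are named, and the nearest of 3 profiles per gene. The members, lists and tests were chosen with earlier results of these data known. Some genes of the lists are counted in the totals but not reported here by name.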

Additional observations from a re-analysis of the deposited data

How the results depend on the processing

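XIAP, BIRC2, BIRC3 and BIRC5 fell in both belinostat comparisons under all 15 alternatives. The count of the 9 genes called lay within 1.5 times its value for both belinostat comparisons under every alternative (4 to 7 on leaving out 1 library in each). For all genes the count on leaving out 1 library ran from 6322 to 10038 for belinostat against DMSO, and from 4102 to 8247 for the combination against AsiDNA, with 4102 and 4198 without AsiDNA replicate 1 and 2. For the combination against belinostat it ran from 3142 (without combination replicate 2) to 8477, with 1 to 7 of the 9 genes, and was 4220 and 3727 without belinostat replicate 1 and 2. For AsiDNA against DMSO it ran from 0 to 4955, with 0 to 4 of the 9, and for the interaction from 0 to 5358, with 0 to 4 of the 9.

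Of all genes, AsiDNA against DMSO called 1 with library sizes alone, 520 with no filter, 33 by DESeq2, 5 with a replicate block and 0 with only the groups compared. The interaction called 10 with RLE factors, 157 with library sizes alone, 1549 with no filter, 351 with at least 1 CPM in 2 libraries, 614 by DESeq2 and 19 with a replicate block. Of the 9 genes, the interaction called 1 (BIRC5) with no filter and 1 (BIRC5) by DESeq2. The cause was not tested. Replicate numbers are shared by the groups, and deviations of same-numbered libraries correlated between -0.196 and 0.139. With 2 libraries a group, these correlations rest on a single difference per group. They cannot decide whether same-numbered libraries were handled together. The replicate block called 5 of the 9 genes for belinostat against DMSO, against 6 without it.

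Signs reversed, at values that did not pass, for CYCS in belinostat against DMSO (-0.08 with library sizes alone, -0.11 with no filter, -0.03 with the 1 CPM filter, -0.04 with only the groups compared, -0.19 to 0.29 on leaving out 1 library) and for CASP1 (0.02 with the block). In the combination against AsiDNA, library sizes alone gave -0.05 for BIRC6, -0.03 for APAF1, -0.02 for TNFRSF1A and -0.11 for ACIN1, and no filter -0.03 for ACIN1. BIRC2 was at -0.03 in the combination against belinostat with library sizes alone, and at 0.08 with no filter and 0.04 with the 1 CPM filter in the interaction. On leaving out 1 library, signs also reversed, with these ranges. For belinostat against DMSO, CFLAR ran from -0.03 to 0.32 and CASP1 from -0.96 to 2.9. For the combination against AsiDNA, CASP1 ran from -0.59 to 0.45 and ACIN1 from -0.01 to 0.03. For AsiDNA against DMSO, XIAP ran from -0.15 to 0.30, BIRC5 from -0.04 to 0.72, CFLAR from -0.22 to 0.02, CASP8 from -0.14 to 0.32, CASP9 from -0.10 to 0.42 and DIABLO from -0.63 to 0.22. BIRC2 ran from -0.03 to 0.20 for the combination against belinostat. For the interaction, BIRC2 ran from -0.07 to 0.16, BIRC3 from -0.10 to 0.36 and CASP9 from -0.14 to 0.37. Counts of 38 to 141 limit DIABLO, and 2 libraries a group limit all values.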
